A study of Danio rerio with 3 samples.

Results

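The cells described here are the 464 cells that the deposited integrated table names pMN1, out of 6264 cells in all, and they were chosen by that name alone. Of these, 230 came from the library of 24 hours post fertilisation (hpf), 179 from that of 36 hpf and 55 from that of 48 hpf. All 3 libraries were single-cell RNA profiles of untreated wild-type zebrafish embryos of the line Tg(olig2:EGFP), dissociated and sorted for green fluorescence, with 1 library per stage. The sources used here do not state how many embryos were pooled for a library. The reporter marks cells in which olig2 regulatory sequence is or has recently been active, since the fluorescent protein outlasts its RNA, and so a sort on it also collects young descendants of the progenitors. The name rests on the authors' clustering: olig2, sox19a and nkx6.1, the markers of this class, could not be checked, because the tables used hold no value for any gene.

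The pMN domain is a band of dividing cells in the ventral neural tube, set up by Sonic hedgehog from the floor plate. Its cells make motor neurons first and oligodendrocyte precursors later. Olig2 is a basic helix-loop-helix factor needed for both fates, Nkx6.1 is a homeodomain factor of the ventral cord that helps to keep olig2 on, and Sox19a belongs to the SoxB1 family of factors found in undifferentiated neural cells. Progenitors of the neural tube copy their DNA in S phase and divide after G2 in M phase, and a cell that leaves the cycle to become a neuron turns off the genes of both. A phase score sums up, for each cell, how strongly the genes of one of these phases are expressed against control genes. It has no unit, and a value above 0 means more than the control genes. The difference of S score minus G2M score says which of the phases has the stronger signal.

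The libraries held 16432785 unique molecular identifiers (UMIs, counts of single RNA molecules) at 24 hpf, 10656224 at 36 hpf and 17562789 at 48 hpf. By its barcodes, the library of 48 hpf differed from both others. Of its 55 pMN1 cells, 46 (83.6%) had a barcode start of 7 bases that no cell of the other libraries had. Such a start was found in 3 of the 230 pMN1 cells at 24 hpf and 10 of the 179 at 36 hpf. Over all cells of a library the share was 0.876% at 24 hpf, 2.45% at 36 hpf and 87.0% at 48 hpf. The difference was therefore not particular to pMN1. Any difference between 48 hpf and an earlier stage cannot be told apart from a difference between these barcode sets. Whole barcodes were shared by 7 pairs of cells at 24 and 36 hpf and by none with 48 hpf, and 1 pMN1 cell was in such a pair. With no second library of any stage there is no test between stages, and no p-value is given. Every interval printed is that of a share and covers counting error only.

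pMN1 made up a smaller part of the library at 48 hpf than before, and also of the cells called S or G2M. Cells named pMN1 were 12.6% of the library at 24 hpf, 8.76% at 36 hpf and 2.30% at 48 hpf. Among the cells called S or G2M they were 19.1% at 24 hpf (230 of 1202 cells, exact 95% binomial interval 16.9 to 21.5), 22.7% at 36 hpf (179 of 790, 19.8 to 25.7) and 11.4% at 48 hpf (55 of 481, 8.73 to 14.6). The intervals of 24 and 36 hpf overlapped, and that of 48 hpf lay below both. Of the other cells called S or G2M, scores set for each library on its own called 30.5% G1 at 48 hpf. At 24 and 36 hpf these were 7.30% and 5.07%. The pool at 48 hpf thus held more weak calls. The share of pMN1 without them, and whether its interval would still lie below the others, was not tested. At 48 hpf pMN1 held like parts of the S calls, 11.4%, and of the G2M calls, 11.5%. Within the classes pMN1, pMN2 and pMN3 together its part was 40.6% (36.5 to 44.7), 42.9% (38.1 to 47.8) and 32.7% (25.7 to 40.4), and these intervals overlapped. Because pMN1 cells were rich in RNA, their part of a library's UMIs, 15.6% at 24 hpf, 12.2% at 36 hpf and 3.44% at 48 hpf, was in each case larger than their part of its cells.

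No pMN1 cell was called G1 at any stage. That was 0 of 230 cells at 24 hpf, which allows a share of up to 1.30%, 0 of 179 at 36 hpf, up to 1.68%, and 0 of 55 at 48 hpf, up to 5.45%. These limits stand for 3 counts. The exact 95% binomial intervals reach to 1.59%, 2.04% and 6.49%. Over all other cells of the same libraries the G1 share was 39.1% at 24 hpf (624 of 1596), 67.2% at 36 hpf (1254 of 1865) and 81.8% at 48 hpf (1913 of 2339). The classes most like pMN1 shared this. All pMN2 cells were called S or G2M at every stage, as were 98.6% of pMN3 cells at 24 hpf and 89.5% at 36 hpf, and all MEP Glia cells at 48 hpf. The clusters were made from the RNA of the same cells, phase genes included, so this is a description of what the name covers and not a test. A phase call says which score is higher, not that a cell was seen to divide.

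Calls of S and of G2M were close to balanced in pMN1. The S share was 47.0% at 24 hpf (108 of 230, 40.4 to 53.6), 47.5% at 36 hpf (85 of 179, 40.0 to 55.1) and 56.4% at 48 hpf (31 of 55, 42.3 to 69.7). These intervals overlapped one another and included an even split. The other classes named for the domain leaned to one side at 24 and 36 hpf, and at 48 hpf only pMN2 did. In pMN2 the S share was 27.2%, 22.4% and 37.0% at the 3 stages, and its interval lay below that of pMN1 at 24 and 36 hpf and overlapped it at 48 hpf. In pMN3 it was 75.5%, 75.8% and, over 13 cells, 53.8%. Over all other cells called S or G2M it was 52.4%, 45.3% and 56.6%, inside the interval of pMN1 at each stage.

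Most pMN1 cells had both scores above 0 at once. This held for 77.0% of pMN1 cells at 24 hpf (177 of 230, 71.0 to 82.2), 69.3% at 36 hpf (124 of 179, 62.0 to 75.9) and 83.6% at 48 hpf (46 of 55, 71.2 to 92.2). Among other cells called S or G2M it held for 40.5%, 33.6% and 33.8%, in pMN2 for 28.0%, 22.4% and 40.0%, and in pMN3 for 36.8%, 29.5% and 38.5%. Over all cells of a class, G1 calls included, pMN1 had the highest such share of the 11 classes with at least 50 cells at 24 hpf. Pre-OPC, the class named for oligodendrocyte precursor fate, followed at 61.4%. pMN1 also had the highest of 19 classes at 48 hpf, where MEP Glia, glia of the motor exit points, followed at 49.1%. At 36 hpf Retinal Progenitor and pMN1, out of 15 classes, both stood at 69.3%. A G1 call excludes both scores above 0, so these ranks in part repeat the lack of G1 calls in pMN1. Only 84.5% of Pre-OPC cells at 24 hpf and 86.1% of Retinal Progenitor cells at 36 hpf were called S or G2M. Among such cells alone their shares were thus higher than those given, and that of Retinal Progenitor was above that of pMN1. The trait was therefore not particular to pMN1.

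**Figure D1:**
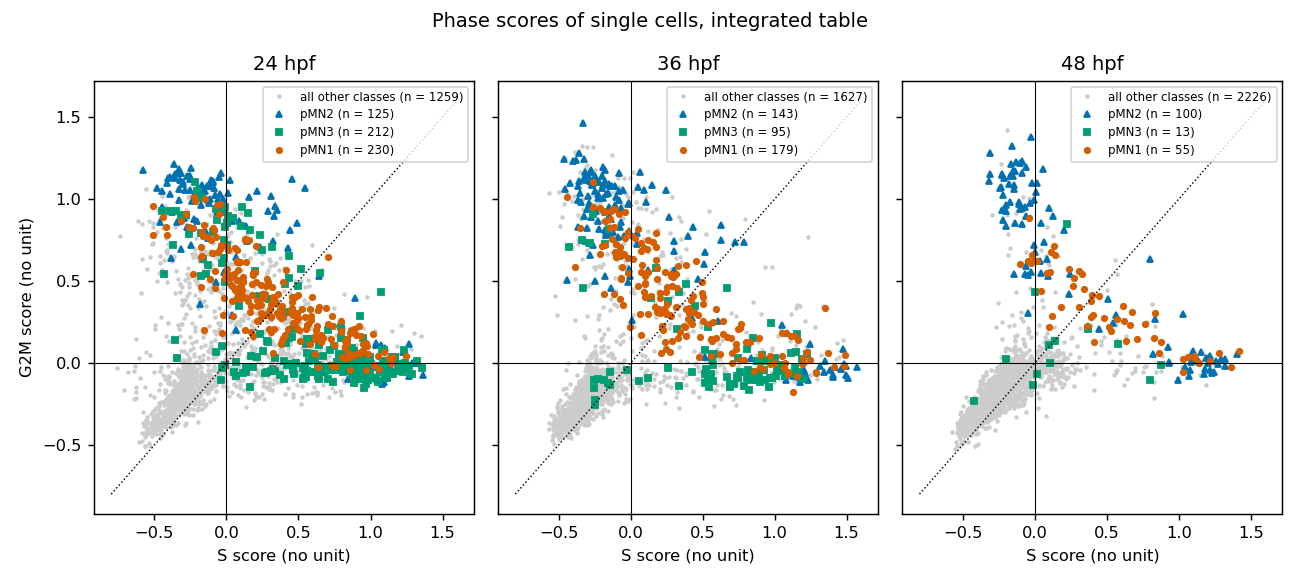
S score (x axis) against G2M score (y axis) of each cell in the integrated table, 1 panel per stage, with the dotted line where both are equal and thin lines at 0. Most pMN1 cells (circles) lie in the upper right field, 77.0%, 69.3% and 83.6% of them at 24, 36 and 48 hpf, along the band that joins the cells of high G2M score, many of them pMN2 (triangles), to the cells of high S score, where pMN3 (squares) and other pMN2 cells lie.

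The S score of pMN1 had a median of 0.299 at 24 hpf (lowest -0.511, highest 1.25, SD over cells 0.383), 0.281 at 36 hpf (-0.444 to 1.49, SD 0.448) and 0.403 at 48 hpf (-0.103 to 1.42, SD 0.412). The median over all other cells was -0.126, -0.263 and -0.276, so that pMN1 stood above it by 0.425, 0.544 and 0.679. Against other cells called S or G2M the gap was 0.090, 0.134 and 0.326. Those cells had median S scores of 0.209, 0.147 and 0.0771. By scores set for each library on its own, 7.30%, 5.07% and 30.5% of them were called G1, so many calls at 48 hpf were weak.

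The G2M score of pMN1 had a median of 0.349 at 24 hpf (lowest -0.0438, highest 1.01, SD 0.251), 0.331 at 36 hpf (-0.174 to 1.11, SD 0.294) and 0.295 at 48 hpf (-0.0561 to 0.883, SD 0.231). It lay above the median of all other cells by 0.385, 0.478 and 0.491, and above that of other cells called S or G2M by 0.195, 0.102 and 0.255. With the other cells weighted to the UMI counts of pMN1, the gaps to all other cells were 0.336, 0.441 and 0.658 for the S score and 0.273, 0.370 and 0.471 for the G2M score. Against other cells called S or G2M weighted in the same way, the S gaps were 0.115, 0.105 and 0.289 and the G2M gaps 0.120, -0.0251 and 0.245. At equal depth the median G2M score of pMN1 at 36 hpf was thus slightly below that of those cells. The median G2M score of pMN2 was far higher, 0.919, 0.860 and 0.699, and that of pMN3 was near 0, at 0.00194, -0.0523 and 0.0232.

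The difference of S minus G2M score in pMN1 was not clearly on one side at any stage. Its median was -0.0458 at 24 hpf (SD 0.609), -0.0554 at 36 hpf (SD 0.710) and 0.108 at 48 hpf (SD 0.623). The SD was 0.733, 0.869 and 0.626 in other cells called S or G2M, and 0.995, 1.01 and 1.03 in pMN2. In pMN3 it was 0.713, 0.621 and, over 13 cells, 0.450. In all other cells it was 0.577, 0.501 and 0.275. The spread of pMN1 was thus no wider than that of other cells called S or G2M. Calls near the border, with a difference of less than 0.1 either way, were 12.6% of pMN1 cells at 24 hpf, 10.1% at 36 hpf and 7.27% at 48 hpf. Among other cells called S or G2M they were 7.00%, 4.91% and 21.1%, so pMN1 was above these cells at 24 and 36 hpf and below them at 48 hpf. In pMN3 they were 5.19%, 9.47% and, over 13 cells, 23.1%. In pMN2 no cell was so near at 24 or 48 hpf and 4 of 143 were at 36 hpf.

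Cells of either call kept some signal of the other phase. pMN1 cells called S had median G2M scores of 0.175 at 24 hpf, 0.137 at 36 hpf and 0.153 at 48 hpf, whereas other cells called S had -0.00758, -0.0411 and -0.0226. pMN1 cells called G2M had median S scores of 0.0725, 0.0697 and 0.117, against -0.113, -0.148 and -0.0814 in other cells called G2M. In both directions the pMN1 median was above 0 and that of the other cells below 0 at every stage by the integrated scores. By the stage-table scores of the same cells this held except at 24 hpf, where pMN1 cells called G2M had a median S score of -0.0228 and the other cells -0.101. Doublets, droplets that held more than 1 cell, could give such mixed scores, and without values per gene their part was not tested. The part of free RNA in the scores was not tested either. Of the pMN1 cells, 17, 16 and 2 were among the 5% of their library's cells with the most UMIs. Without those deepest cells the gaps to all other cells were 0.459, 0.548 and 0.677 for the S score and 0.373, 0.484 and 0.489 for the G2M score. These gaps do not measure mixed scores, which were not computed again without those cells.

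pMN1 cells held more RNA than the pooled other cells of their library, and about as much as the other pMN classes. Their median was 11612.5 UMIs at 24 hpf (quartiles 9256 and 13720, range 581 to 20603), 6901 at 36 hpf (5780 and 8171, range 1609 to 17909) and 10525 at 48 hpf (8358 and 13735, range 4920 to 18385). All other cells had medians of 8644, 4375 and 5694, so the ratio was 1.34 at 24 hpf, 1.58 at 36 hpf and 1.85 at 48 hpf. Against other cells called S or G2M the ratio was 1.19, 1.08 and 1.48. Those cells had medians of 9796.5, 6382 and 7100, and their interquartile ranges overlapped that of pMN1 at every stage. The median at 36 hpf was 0.594 of that at 24 hpf in pMN1 and 0.506 in all other cells, so both were lower in the shallower library. The medians of pMN2, 10706, 6845 and 10203 UMIs, were close to those of pMN1, as were those of pMN3 at 24 and 36 hpf, 10690 and 6433. Higher medians were found in NM Progenitor at 24 hpf, 11672.5 UMIs, and in MEP Glia at 48 hpf, 12594.

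**Figure D2:**
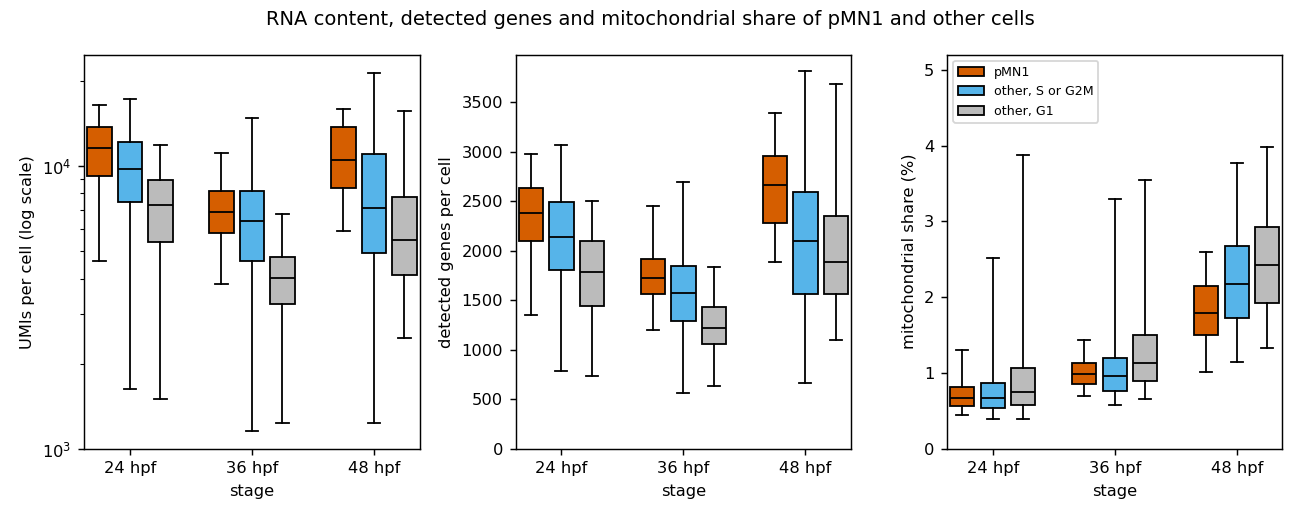
UMIs (left, log axis), detected genes (middle) and mitochondrial share in percent (right) per cell at the 3 stages, for pMN1, other cells called S or G2M and other cells called G1. Boxes show quartiles and the median, and whiskers reach from the 5 to the 95 percent points of the cells. At 48 hpf the pMN1 medians of 10525 UMIs and 2661 genes stand above those of other cells called S or G2M, 7100 and 2094, and the mitochondrial median of 1.79% stands below their 2.17%.

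Shallow cells were rare in pMN1. Cells under 2000 UMIs were 5 of 230 at 24 hpf (2.17%), 1 of 179 at 36 hpf and 0 of 55 at 48 hpf, where the shallowest had 4920. Among all other cells they were 7.71%, 11.0% and 4.40%. In pMN2 they were 11.2%, 8.39% and 2%, and in pMN3 2.83%, 4.21% and, over 13 cells, 23.1%. The lack of such cells at 48 hpf was not particular to pMN1. The shallowest cells of the classes CSF-cN2 and MN1 there had 2066 and 2228 UMIs. In relation to its median, the interquartile range of UMIs was 0.384, 0.346 and 0.511 in pMN1 and 0.543, 0.559 and 0.721 in all other cells. Single classes were more even than pMN1 at 24 hpf, with 0.378 in pMN3, and at 48 hpf, with 0.351 in pMN2. At 36 hpf pMN2, with 0.354, was nearly as even as pMN1.

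The number of detected genes followed the depth. pMN1 cells had medians of 2375.5 genes at 24 hpf, 1726 at 36 hpf and 2661 at 48 hpf. The lowest and highest cells had 406 and 3343 genes, 679 and 3074, and 1781 and 3688 at these stages. These were 1.18, 1.32 and 1.39 times the medians of all other cells. When the other cells were weighted to the same UMI counts, the ratios were 1.02, 1.03 and 0.994. At equal depth pMN1 cells therefore had nearly the same number of detected genes as the pooled other cells of their library. Against other cells called S or G2M, weighted in the same way, the ratios were 1.02, 1.05 and 1.06. The 48 hpf cells of pMN1 had fewer UMIs than those of 24 hpf, 0.906 of the median, and more genes, 1.12 times the median. In all other cells the same ratios were 0.659 for UMIs and 0.958 for genes.

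The mitochondrial share of pMN1 was close to that of the other cells at 24 and 36 hpf and lower at 48 hpf. Its median was 0.676% at 24 hpf (lowest 0.332%, highest 2.65%), 0.993% at 36 hpf (lowest 0.265%, highest 3.68%) and 1.79% at 48 hpf (lowest 0.836%, highest 3.10%). All other cells had medians of 0.688%, 1.06% and 2.37%, so the differences were -0.0122, -0.0707 and -0.580 percentage points. Over 3% were 0 of 230 pMN1 cells (up to 1.30%), 2 of 179 and 1 of 55, against 5.95%, 7.18% and 20.9% of all other cells. The level at 48 hpf was the highest of the 3 stages in pMN1 and in all other cells. Among other cells called S or G2M the medians were 0.672%, 0.962% and 2.17%, and pMN1 was below them at 48 hpf and slightly above at the earlier stages. The low level at 48 hpf was not particular to pMN1. Of the 19 classes with at least 50 cells there, CSF-cN1 (1.74%) and CSF-cN2 (1.78%) had lower medians. At the same stage pMN3, over 13 cells, had 1.61% and pMN2 had 2.11%.

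UMI counts of the S and G2M calls stood in another order at each end of the time course. At 24 hpf pMN1 cells called G2M had a median of 12318 UMIs and those called S had 10708.5, a ratio of 1.15. At 36 hpf the ratio was 0.992 (6880.5 over 6934), and at 48 hpf it was 0.852 (9593.5 over 11263). Other cells of the same calls gave 1.15, 1.12 and 0.811, with S calls deeper at 48 hpf as in pMN1, and at each stage the interquartile ranges of the pMN1 calls overlapped.

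The stage tables, in which each library was clustered and named on its own, divided pMN1 in different ways at each stage. The share of pMN1 cells that also had the name pMN1 there was 50.9% at 24 hpf (117 of 230, 44.2 to 57.5), 69.3% at 36 hpf (124 of 179, 62.0 to 75.9) and 63.6% at 48 hpf (35 of 55, 49.6 to 76.2). Read the other way, these cells were 82.4% of the 142 stage-table pMN1 cells at 24 hpf, 77.5% of 160 at 36 hpf and 50.7% of 69 at 48 hpf. Most of the stage-table pMN1 cells that were not pMN1 in the integrated table were pMN2 there, 23, 27 and 25 cells at the 3 stages. The same name therefore did not cover the same set of cells in the 2 annotations. Whether the same numbers were meant to be the same classes is not known.

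**Figure D3:**
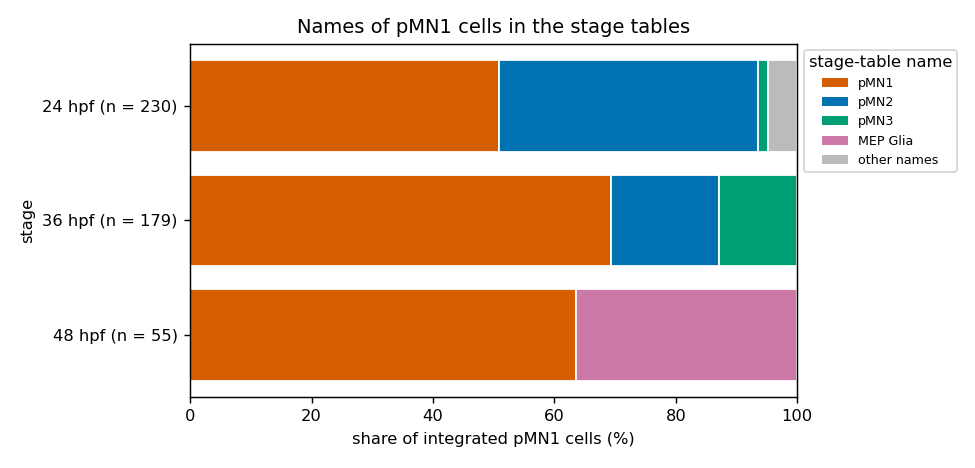
Share in percent (x axis) of integrated pMN1 cells by the name of the same barcode in the table of its stage, 1 bar per stage. The name pMN1 covers 50.9%, 69.3% and 63.6% of the cells, the rest being mostly pMN2 at 24 hpf, pMN2 and pMN3 at 36 hpf and MEP Glia at 48 hpf.

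At 24 hpf the other large part, 98 cells (42.6%), was named pMN2, and it was deeper than the part named pMN1. Those named pMN2 had a median of 13165 UMIs (range 2346 to 20603) and those named pMN1 10168 (581 to 18383). Their S shares were 45.9% and 49.6%, their median S scores 0.278 and 0.333, and their median G2M scores 0.353 and 0.324. Of the remaining cells, 4 were named pMN3 and 11 had names outside the pMN classes: 3 CMN Precursor, 3 Pre-OPC1, 2 NP, 2 V2 IN Precursor and 1 Lateral FP.

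At 36 hpf all 179 cells were named pMN1, pMN2 or pMN3, and there the parts differed in their median scores. The stage-table names were also made from the RNA of the same cells, so this is a description and not a test. The 23 cells named pMN3 were nearly all called S (22 of 23), with a median S score of 1.15 and a median G2M score of 0.00143. The 32 cells named pMN2 were mostly called G2M (23 of 32), with medians of -0.0669 and 0.615, and they were also deep, with 10717.5 UMIs against 6384 in the 124 cells named pMN1. The medians of the 124 cells named pMN1 in both tables lay between, at 0.263 and 0.349, with an S share of 43.5% (34.7 to 52.7). That interval overlapped the one of the cells named pMN2 (28.1%, 13.7 to 46.7). The interval of the cells named pMN3 (95.7%, 78.1 to 99.9) lay above both. Single cells of that name still reached an S score of 1.16 and a G2M score of 1.02.

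At 48 hpf none of the 55 cells was named pMN2 or pMN3, names that the table of that stage does not use, and 20 cells (36.4%, 23.8 to 50.4) were named MEP Glia. MEP glia sit where motor axons leave the cord, wrap those axons and keep central glia from leaving, and they are known to arise from olig2-expressing precursors of the ventral cord. These 20 cells were 22.2% of the 90 MEP Glia cells of that table, as many as the 20 that had the name in both tables, while 47 of the 90 were pMN2 in the integrated table. So most cells with the stage-table name MEP Glia were in pMN classes of the integrated table.

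The 20 pMN1 cells named MEP Glia held more RNA than the 35 named pMN1. They had a median of 13931.5 UMIs (range 9854 to 18385) against 8969 (4920 to 14683), a ratio of 1.55, and 2929.5 against 2396 detected genes, a ratio of 1.22. The ranges overlapped, since 11 of the 35 cells named pMN1 had at least the 9854 UMIs of the shallowest cell named MEP Glia. Their mitochondrial medians were 2.07% and 1.72%. More of them were called S, 14 of 20 (70.0%, 45.7 to 88.1) against 17 of 35 (48.6%, 31.4 to 66.0), with overlapping intervals.

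**Figure D4:**
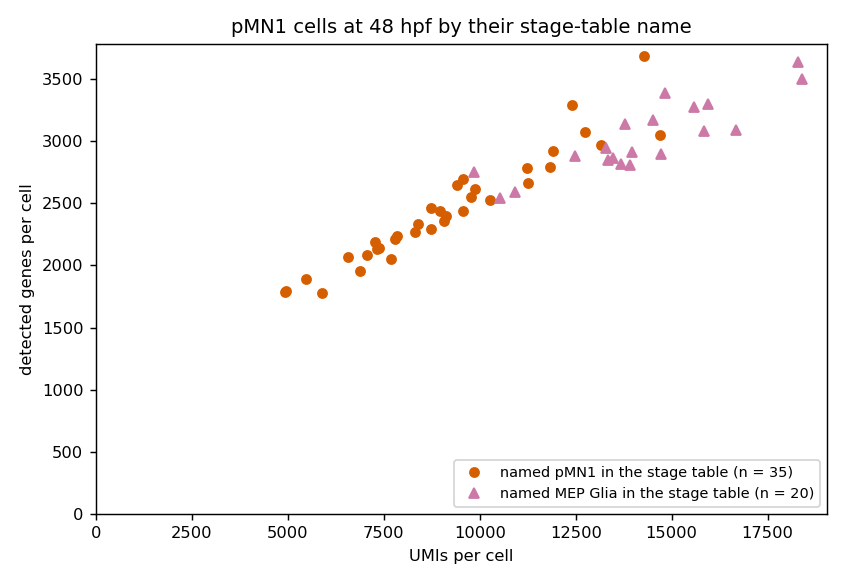
UMIs (x axis) and detected genes (y axis) of the 55 pMN1 cells at 48 hpf, by their name in the table of that stage. Cells named MEP Glia (triangles, n = 20) begin at 9854 UMIs, and cells named pMN1 (circles, n = 35) reach from 4920 to 14683.

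In their scores these 20 cells were set beside the other pMN1 cells and the 20 cells that had the name MEP Glia in both tables. Their median G2M score was 0.258, against 0.339 in the 35 cells named pMN1 and -0.0455 in the cells with that name in both. Their median S score was 0.645, against 0.345 and 0.658. The SD over the 20 cells was 0.226 for the G2M and 0.378 for the S score. The cells named MEP Glia in both tables had 9298 UMIs at the median, so the depth of the 20 pMN1 cells was above that of both. The 47 pMN2 cells with the stage-table name MEP Glia had medians of 0.923 for the S score, 0.0656 for the G2M score and 10380 UMIs. All 53 MEP Glia cells of the integrated table had a median of 12594 UMIs and an upper quartile of 21391, so such depth was also found there.

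Without these 20 cells some values of pMN1 at 48 hpf moved. The 35 cells named pMN1 in both tables were 1.46% of the library, in place of 2.30%, had an S share of 48.6% in place of 56.4%, and a median S minus G2M score of -0.107 in place of 0.108. Their UMI ratio to all other cells, which here included the 20 cells named MEP Glia, was 1.57, in place of 1.85. The sign of the S minus G2M median at 48 hpf thus turned when the cells named MEP Glia were left out.

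The scores of the stage tables, set for each library on its own, gave pMN1 no G1 call either, but a different balance at 48 hpf. The S share by those calls was 49.6% at 24 hpf, 43.6% at 36 hpf and 38.2% at 48 hpf (21 of 55, 25.4 to 52.3). The call differed between the tables in 14 of 230 pMN1 cells at 24 hpf (6.09%), 11 of 179 at 36 hpf (6.15%) and 10 of 55 at 48 hpf (18.2%). All 10 cells at 48 hpf went from S in the integrated table to G2M in the stage table. At 36 hpf 9 went that way and 2 the other, and at 24 hpf 4 went that way and 10 the other. The call differed in 12.0%, 7.04% and 39.9% of other cells called S or G2M, with overlapping intervals at 36 hpf (3.11 to 10.7 in pMN1, 5.14 to 9.36 in the others). Most of these changes in the other cells were to G1, in 71 of 972, 31 of 611 and 130 of 426 cells, which no pMN1 cell showed. The total shares are therefore not alike in kind. Swaps from S to G2M were found in 1.74%, 5.03% and 18.2% of pMN1 cells, against 0.720%, 1.80% and 6.34% of the others. Swaps from G2M to S were found in 4.35%, 1.12% and 0% of pMN1 cells, against 4.01%, 0.164% and 3.05%. In pMN2 the call differed in 0.8%, 0.699% and 5% of cells.

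**Figure D5:**
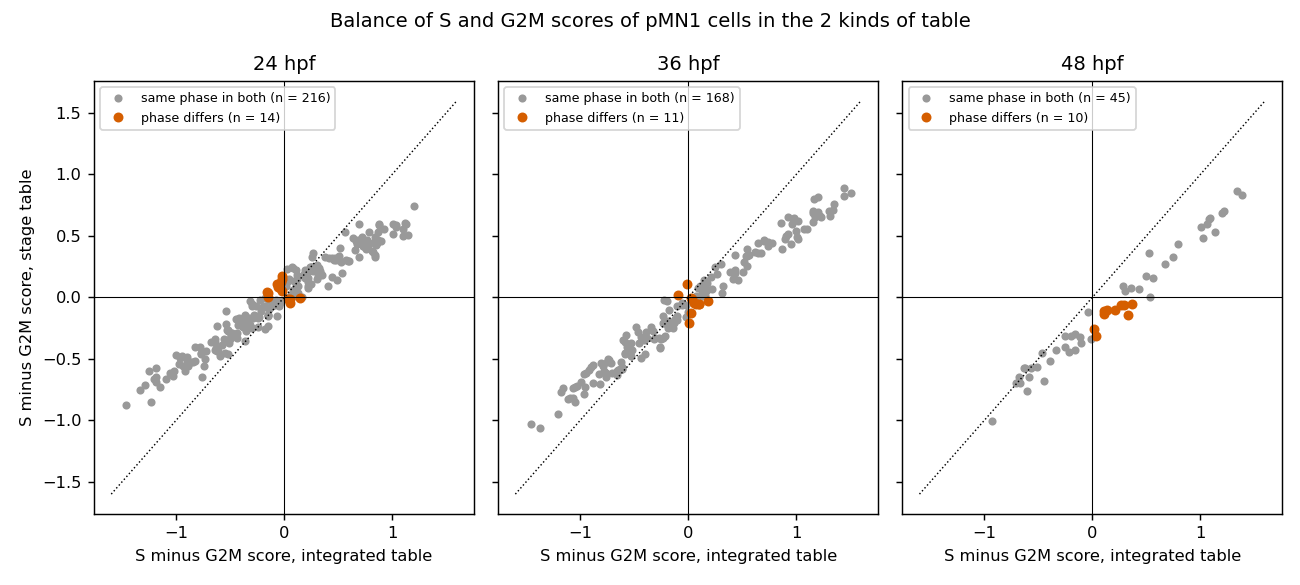
S minus G2M score of each pMN1 cell in the integrated table (x axis) and in the table of its stage (y axis), with the dotted line of equality. Cells whose call differs are marked (14, 11 and 10 at the successive stages). All 10 at 48 hpf lie in the lower right field, where the call is S by the integrated and G2M by the stage table.

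By the stage-table scores, both scores above 0 were found in about as many pMN1 cells as not at 24 hpf and in most at the later stages. The share was 52.6% at 24 hpf (45.9 to 59.2), 73.7% at 36 hpf (66.7 to 80.0) and 96.4% at 48 hpf (53 of 55, 87.5 to 99.6). Cells outside pMN1 that were called S or G2M in the integrated table had 26.1%, 31.6% and 35.0%. By the stage-table scores, 7.30%, 5.07% and 30.5% of these cells were called G1, so the pool was not all S or G2M by the same scores. In pMN2 the share was 24.8%, 24.5% and 59%, and in pMN3 12.7%, 24.2% and, over 13 cells, 38.5%. The order of the stages differed between the tables, with 36 hpf lowest by the integrated and 24 hpf lowest by the stage-table scores, and 48 hpf highest in both. At 48 hpf the lowest stage-table G2M score of any pMN1 cell was 0.136, so all 55 cells were above 0.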

How the data were processed

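Cell classes, phase calls and all values were taken from tables of cells, 1 per stage and 1 integrated over 3 libraries (groups by the stage in the labels). Members, lists and comparisons were chosen with earlier results of these data known. The deposited counts, UMIs and detected genes of each cell, are whole numbers and were not normalised. The deposited percent is the mitochondrial part of a cell's UMIs. The S, G2M and CC.Difference values and the embedding coordinates are scores deposited per cell, and the sources used here do not state their gene lists. The submitters' processing notes name Cell Ranger, Seurat and the build GRCz11. No cell had under 504 UMIs or over 4.995% mitochondrial reads, so cells had been filtered before deposit, and the sources used here do not state how doublets were treated.

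Cells of the 2 kinds of table were joined by stage and barcode, with equal UMI counts in 6264 of 6264 cells. In all 6264 cells the call was G1 if no score exceeded 0 and otherwise that of the higher score, and CC.Difference was S minus G2M. Medians, quartiles and SDs over cells, and exact (Clopper-Pearson) 95% binomial intervals of shares, were computed. For the closing section, the pMN1 median of a score, count or percent had a 95% interval from its ordered values. The median of the other cells was held fixed in it, so their spread is not covered. A count of 0 was given the limit of 3 counts. Other cells were weighted to the pMN1 distribution over bins of 0.1 in log10 UMI count, since cells could not be thinned without values per gene. The intervals and the weighting were tested on simulated data. The stage-table names given to at least 5 pMN1 cells of a stage are described, and at 24 hpf the rarer ones are named too, a choice made after their values were seen. The alternatives tried are those of the closing section, and taking as pMN1 only the cells named so in both tables was chosen after seeing the data. In that alternative the pMN1 cells without both names were counted among the other cells. The tools were scipy 1.17.1, pandas 2.3.3, numpy 2.4.6, matplotlib 3.10.9 and scikit-learn 1.9.0 under Python 3.11.15.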

Additional observations from a re-analysis of the deposited data

Results flagged for a closer look

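In 3 comparisons of pMN1 with other cells called S or G2M the direction was not the same at all stages. With 1 library per stage, none of these differences between stages was tested. The median of S minus G2M score in pMN1 differed from that of those cells by -0.107 at 24 hpf, 0.101 at 36 hpf and 0.0416 at 48 hpf. With those cells weighted to the UMI counts of pMN1 the differences were 0.0154, 0.196 and -0.0213, and with stage-table scores they were -0.0917, 0.0594 and -0.136, so the sign turned at 24 hpf under the weighting and at 48 hpf under both. The S share differed by -5.41 percentage points at 24 hpf, 2.15 at 36 hpf and -0.209 at 48 hpf. The median mitochondrial share differed by 0.00446 percentage points at 24 hpf, 0.0308 at 36 hpf and -0.386 at 48 hpf. The S share of the other cells lay inside the interval of the pMN1 S share at each stage.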

How the results depend on the processing

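Of 177 alternative values, 111 stayed within the interval of the value reported without a change of sign, and 53 moved outside it without such a change. The remaining 13 changed sign, and some of these still lay within the interval. Shares could not change sign, so a share that moved always counted among the 53. For a ratio, a change of sign means passing to the other side of equality. Values are given in the order 24, 36 and 48 hpf where all moved, and the cause of a change was not tested. With pMN1 as named by the stage tables, the share of cells was 7.78% at 24 hpf, the S share 37.5% at 36 and 42.0% at 48 hpf, and the S gap to all other cells 0.475 and 0.420 at these stages. Its G2M gap was 0.321, 0.561 and 0.747, its S minus G2M gap 0.152, -0.108 and -0.175, its UMI ratio 1.12 at 24 and 1.47 at 36 hpf, and its gene ratio 1.08, 1.27 and 1.25. With cells named pMN1 in both tables, the share was 6.41%, 6.07% and 1.46%, the G2M gap 0.342 at 24 hpf, the S minus G2M gap -0.00543 at 36 and -0.0293 at 48 hpf, the UMI ratio 1.15, 1.44 and 1.57, and the gene ratio 1.10, 1.26 and 1.24. With stage-table scores, the S gap was 0.273, 0.344 and 0.372, the G2M gap 0.240 at 24 and 0.434 at 36 hpf, the S minus G2M gap -0.0873 at 36 and -0.156 at 48 hpf, and the S share 38.2% at 48 hpf. Against other cells called S or G2M, the S gap was 0.0902, 0.134 and 0.326, the G2M gap 0.195, 0.102 and 0.255, the S minus G2M gap -0.107 at 24 hpf, the UMI ratio 1.19, 1.08 and 1.48, the gene ratio 1.11, 1.10 and 1.27, and the mitochondrial gap 0.00446 at 24 and 0.0308 at 36 hpf. With other cells weighted by depth, the S gap was 0.336 and the G2M gap 0.273 at 24 hpf, 0.441 and 0.370 at 36 hpf, the gene ratio 1.02, 1.03 and 0.994, and the mitochondrial gap 0.00398 at 24 and 0.0153 at 36 hpf. Among cells of at least 2000 UMIs, the mitochondrial gap was 0.00134 at 24 and -0.0351 at 36 hpf and the gene ratio 1.27 at 36 hpf. With any pMN name counted as shared, the share of shared names was 95.2% at 24 and 100% at 36 hpf, and without the 5% deepest cells it was 76.1% at 36 hpf.

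No paired analysis was possible because each stage has 1 library. For the same reason no replicate could be left out, and stage, library and barcode set cannot be told apart. With 55 pMN1 cells at 48 hpf, shares there have the widest intervals of the 3 stages.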

Other observations

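The deposited embedding placed pMN1 cells of the 3 stages together. Among the 10 nearest cells of each pMN1 cell, 93.4% were pMN1 at 24 hpf, 88.3% at 36 hpf and 84.9% at 48 hpf. The neighbours of other classes were mainly pMN2 at 48 hpf, with 13.6% of all neighbours, and both pMN2 (4.19%) and pMN3 (4.53%) at 36 hpf. Cells with fewer than 5 of 10 neighbours in pMN1 were few, 9 of 230 at 24 hpf, 16 of 179 at 36 hpf and 9 of 55 at 48 hpf. Neighbours of the 48 hpf cells came from 24 hpf in 37.8%, from 36 hpf in 41.1% and from 48 hpf in 21.1%, while 48 hpf cells were 11.9% of pMN1. Distances in an embedding are not to scale, and the clustering used the same cells, so these shares only describe the deposited picture.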
